A study of Mus musculus with 8 samples.

Results

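10 genes for enzymes that remove reactive oxygen species or urate were followed in mouse liver: catalase (Cat), urate oxidase (Uox), the superoxide dismutases Sod1 and Sod2, the glutathione peroxidases Gpx1 and Gpx4, the peroxiredoxins Prdx1, Prdx5 and Prdx6, and thioredoxin (Txn1). They were picked by name and looked up by Ensembl identifier, and all 10 were found among the 52636 genes of the count files and were among the 15248 genes with enough counts to be tested. The livers came from 8 male C57BL/6J mice, labelled wild-type, which had eaten a diet high in fat, cholesterol and fructose (a diet that produces steatohepatitis, MASH) for 24 weeks. At 7 weeks of age, 1 week before the diet, 4 mice had received AAV8-TBG-GFP (AAV8-GFP, mice 303, 311, 314 and 315) and 4 had received AAV8-TBG-AGXT (AAV8-AGXT, mice 308, 309, 316 and 319). AAV8 is an adeno-associated virus that infects liver well, TBG is a hepatocyte-specific promoter, and AGXT here is the human gene for alanine-glyoxylate aminotransferase. All mice therefore carried a virus and ate the diet, and there was no group on normal chow. The comparison asks how the livers differed when hepatocytes carried AGXT in place of GFP.

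Superoxide dismutases turn superoxide into hydrogen peroxide, and catalase, the glutathione peroxidases and the peroxiredoxins then break the peroxide down. Catalase and urate oxidase work inside peroxisomes, where oxidases produce hydrogen peroxide, and urate oxidase is itself such a source because it makes peroxide while it breaks down urate. Glutathione peroxidases draw on glutathione, most peroxiredoxins draw on thioredoxin, and both systems are recharged with NADPH. Hepatocytes are among the cells richest in catalase and peroxisomes.

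The libraries held 19747909 to 28780140 gene-assigned read pairs in AAV8-GFP mice and 17095433 to 23940200 in AAV8-AGXT mice. Counts on genes made up 63.3 to 69.1% of all tallied read pairs in AAV8-GFP mice and 56.3 to 64.8% in AAV8-AGXT mice, with the lowest share in mouse 308. The composition factors (TMM) were 1.02 to 1.14 in AAV8-GFP mice and 0.830 to 1.00 in AAV8-AGXT mice, so the scaling matters for small differences. Mouse Agxt was at 148, 179.9, 153 and 175 CPM (counts scaled to library size) in AAV8-GFP mice and at 405, 201, 243 and 371 CPM in AAV8-AGXT mice (log2 fold change 0.90, SE 0.22, adjusted p = 0.0489 by edgeR's quasi-likelihood test). Reads of the human transgene may align in part to the mouse gene, so this checks the labels only in part, and the adjusted p passed 0.05 in 1 of the 8 fits that left out a mouse (without mouse 309; 0.0316 to 0.146 over the 8) and in 3 of the 8 other alternatives (0.00220 to 0.0566). In bulk liver, fewer cells of a type and less RNA per cell cannot be told apart.

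Each enzyme was covered by 2920 to 66734 read pairs per mouse, so precision was limited by the differences between mice rather than by counting. Of the 10 enzymes, 1 passed an adjusted p of 0.05 by edgeR, namely Prdx6, which rose in AAV8-AGXT mice, and none fell, while 2 (Prdx6 and Cat) had an unadjusted p under 0.05. Among all tested genes 4.35% passed, 2.45% as higher and 1.9% as lower in AAV8-AGXT. An unadjusted p under 0.05 by edgeR was found for 3988 of the 15248 tested genes, the background for such counts in the lists below. The log2 fold change, AAV8-AGXT over AAV8-GFP, was above 0 for 7 of the 10 and below 0 for 3, with a median of 0.15 beside 0.02 over all tested genes, of which 52.3% were above 0. In 2 of the 10, Prdx6 and Cat, every AAV8-AGXT mouse was above every AAV8-GFP mouse in TMM-scaled CPM. This pattern was shown by 8.93% of tested genes, and 16.6% of tested genes did not overlap in either direction. The coefficient of variation between mice of a group was 7.95 to 19.04% in AAV8-GFP and 7.72 to 26.1% in AAV8-AGXT. DESeq2, run on the same counts as an alternative, called Prdx6 and Cat, both as higher, where 7.43% of the genes it tested were called and 3.78% were called higher. These DESeq2 shares are over 28289 genes, without the filter on low counts that left 15248 for edgeR, so the shares of the 2 tools are not on a like base.

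**Figure D1:**
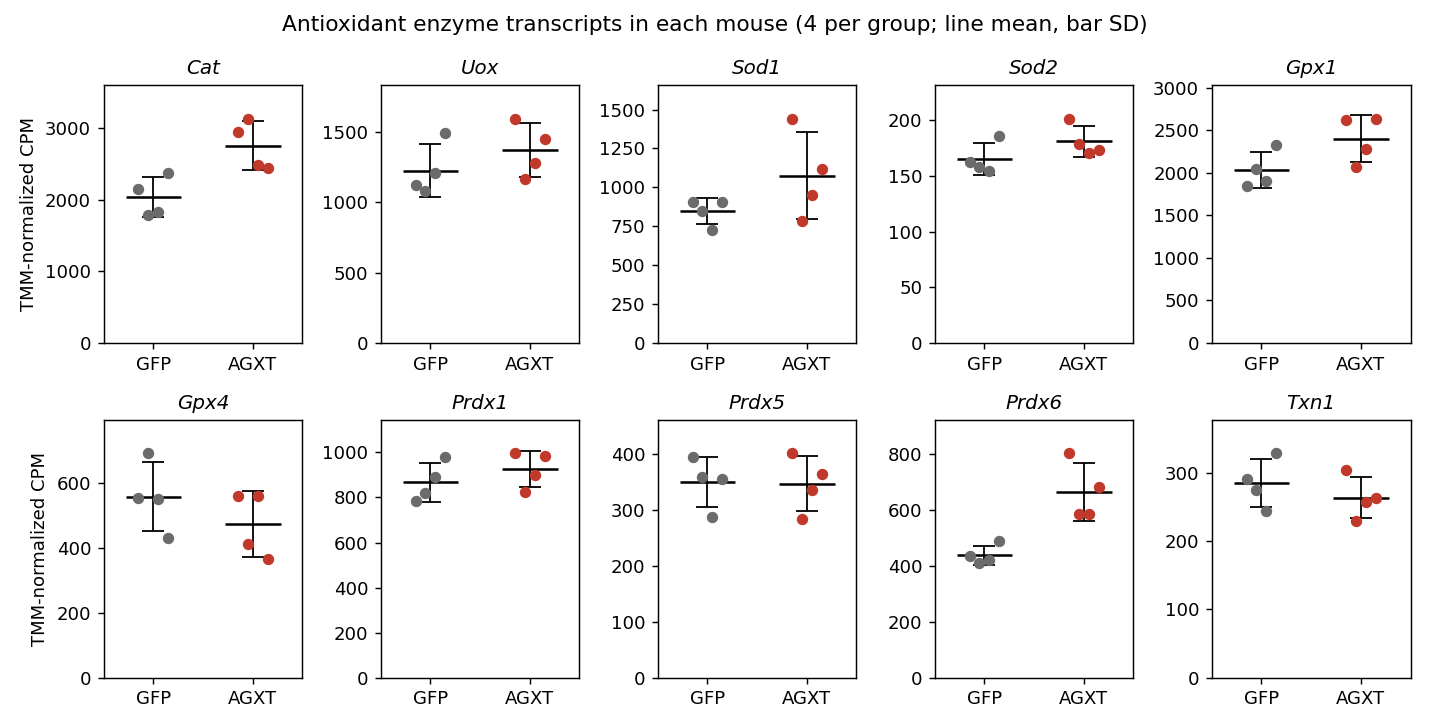
Level of each of the 10 transcripts in CPM (vertical axes from 0, TMM-scaled) in the 4 AAV8-GFP and 4 AAV8-AGXT mice; points are mice, lines are group means and bars are SD. The points of the 2 groups are apart for Prdx6 and Cat and overlap for the other 8 enzymes.

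**Figure D2:**
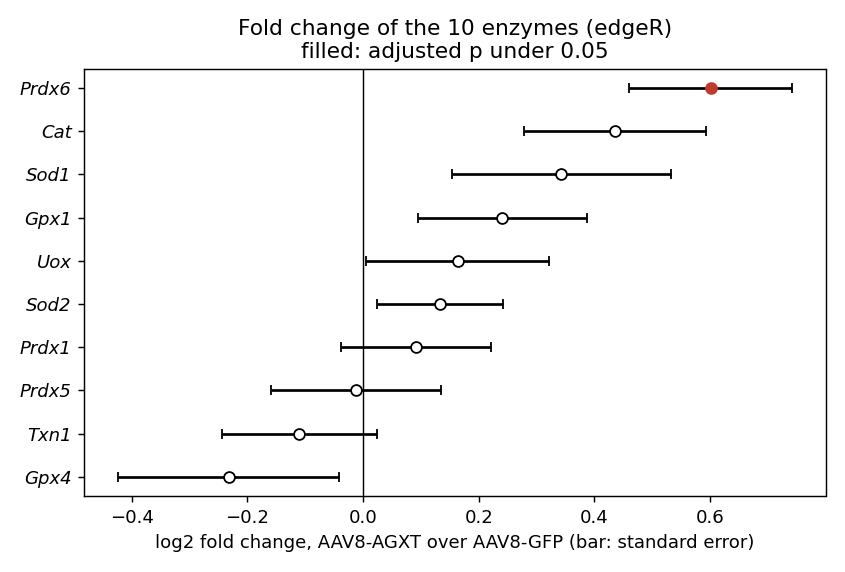
Log2 fold change of the 10 enzymes, AAV8-AGXT over AAV8-GFP (horizontal axis), with the standard error as bars and filled points for an adjusted p under 0.05 by edgeR. Only Prdx6, at 0.60, is filled, and Cat follows at 0.44.

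Prdx6, the peroxiredoxin that uses glutathione rather than thioredoxin and that also has phospholipase activity, was at 434, 409, 421 and 488 CPM in mice 303, 311, 314 and 315. In mice 308, 309, 316 and 319 it was at 804, 587, 586 and 682 CPM. All 4 AAV8-AGXT mice were above all 4 AAV8-GFP mice, and mouse 308 was highest. The group means were 438 ± 34.8 and 665 ± 103 CPM (SD, n = 4 each), a 1.52-fold difference (log2 fold change 0.60, SE 0.14, adjusted p = 0.0461 by edgeR). This call sat close to the threshold. It was kept in 1 of the 8 fits that left out a mouse (the one without mouse 309), with log2 fold changes of 0.48 to 0.66 and adjusted p from 0.0469 to 0.157 (the last without mouse 311), and with total counts as the scaling the log2 fold change was 0.35 (adjusted p = 0.0559). Without mouse 308 the log2 fold change was 0.48 and the adjusted p was 0.0871. Of the 8 alternatives other than leaving out a mouse, 7 kept the call (adjusted p = 0.000475 by DESeq2) and total counts did not. Prdx6 lies at chr1:161240112-161251219 on the minus strand (GRCm38, ENSMUSG00000026701), overlaps no other annotated exon and had no near-identical copy among annotated transcripts.

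Catalase, which splits hydrogen peroxide into water and oxygen in peroxisomes, was at 2155, 1783, 1827 and 2376 CPM in AAV8-GFP mice 303, 311, 314 and 315. It was at 2949, 3134, 2490.0 and 2439 CPM in AAV8-AGXT mice 308, 309, 316 and 319. The groups did not overlap in TMM-scaled CPM, but the lowest AAV8-AGXT mouse (319) and the highest AAV8-GFP mouse (315) lay close together. Mouse 319 had 51693 Cat read pairs of 23940200 on genes, and mouse 315 had 53877 of 22228093. As a share of all gene counts, mouse 319 was thus below mouse 315, and the groups overlapped. The means were 2035 ± 281 and 2753 ± 342 CPM (SD, n = 4 each), 1.35-fold apart, with a log2 fold change of 0.44 (SE 0.16) and an adjusted p of 0.119 by edgeR, which did not pass. DESeq2 gave an adjusted p of 0.0295, and total counts lowered the log2 fold change to 0.20 (adjusted p = 0.318). Cat lies at chr2:103453849-103485160 on the minus strand (ENSMUSG00000027187).

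Urate oxidase, the peroxisomal enzyme that breaks urate down towards allantoin, was at 1122, 1077, 1207 and 1493 CPM in AAV8-GFP mice and at 1594, 1164, 1278 and 1452 CPM in AAV8-AGXT mice. The groups overlapped, with 1 of the 4 AAV8-AGXT mice, mouse 308, above all AAV8-GFP mice. The means were 1225 ± 187 and 1372 ± 189.7 CPM (SD, n = 4 each), with a log2 fold change of 0.16 (SE 0.16, adjusted p = 0.546 by edgeR), and the sign turned with total counts (-0.08). Uox lies at chr3:146570426-146632305 on the plus strand (ENSMUSG00000028186).

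The sequences just upstream of catalase and urate oxidase are shown because both enzymes work inside peroxisomes and the sequences differ in which of the searched motifs they hold. They are RefSeq sequences (GRCm38.p6), printed 5′ to 3′ along the gene, and they end before the first annotated exon at the RefSeq start site, which for Uox lies inside the longer gene annotated by Ensembl. Capitals mark matches on either strand to the nuclear receptor recognition motif AGGTCA, the CCAAT box, the GC box GGGCGG, the TATA box TATAAA or the antioxidant response core TGACNNNGC (N is any base).
Cat, chr2:103485161-103485403, minus strand: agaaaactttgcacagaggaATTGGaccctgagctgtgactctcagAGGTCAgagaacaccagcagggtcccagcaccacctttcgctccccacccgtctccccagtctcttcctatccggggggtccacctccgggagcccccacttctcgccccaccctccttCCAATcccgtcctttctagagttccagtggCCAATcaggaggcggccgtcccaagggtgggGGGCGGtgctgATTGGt
Uox, chr3:146596899-146597076, plus strand: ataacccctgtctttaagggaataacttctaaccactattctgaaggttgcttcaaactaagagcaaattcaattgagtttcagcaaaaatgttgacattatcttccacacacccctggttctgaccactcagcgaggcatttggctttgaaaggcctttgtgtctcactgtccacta
The Cat stretch holds AGGTCA, which begins 204 bases upstream of the start site, 4 CCAAT boxes on either strand and a GC box. No match to any of the 5 motifs stands in the Uox stretch. The stretch upstream of Prdx5, which is partly peroxisomal too, held a GC box and is not shown. Over the 250 bases before 32851 mouse start sites, AGGTCA was found in 14.0%, CCAAT in 33.8% and GGGCGG in 32.7%. The full direct repeat AGGTCANAGGTCA, which contains it, was found in 0.0335% of them and in none of the 9 member genes that had an entry. A match is only a match of letters.

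Sod1, the copper-zinc superoxide dismutase of the cytosol, was at 907, 849, 728 and 905 CPM in AAV8-GFP mice and at 1442, 786, 953 and 1117 CPM in AAV8-AGXT mice. Mouse 308 stood highest, and the other AAV8-AGXT mice lay on both sides of the upper end of the AAV8-GFP range. The means were 847 ± 83.9 and 1074 ± 279.9 CPM (SD, n = 4 each), with a log2 fold change of 0.34 (SE 0.19, adjusted p = 0.280 by edgeR), and of 0.16 without mouse 308. Sod1 lies at chr16:90220754-90226329 on the plus strand (ENSMUSG00000022982). A processed pseudogene (Gm8566) matches 72.5% of its longest coding transcript at 95% identity or more, so its counts are uncertain. Sod2, the manganese dismutase of mitochondria, lay at 154 to 186 CPM in AAV8-GFP mice and at 171 to 202 CPM in AAV8-AGXT mice. Its means of 165 ± 14.1 and 181 ± 14.0 CPM (SD, n = 4 each) differed by 0.13 in log2 (SE 0.11, adjusted p = 0.469 by edgeR), and its sign turned with total counts (-0.11). Sod2 lies at chr17:13006846-13040063 on the plus strand (ENSMUSG00000006818), and 6.16% of its transcript is shared with transcripts of other genes.

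Gpx1, the main cytosolic glutathione peroxidase and a selenoprotein, was at 1847, 2043, 1906 and 2329 CPM in AAV8-GFP mice and at 2618, 2065, 2281 and 2635 CPM in AAV8-AGXT mice. Mice 308 and 319 were above all AAV8-GFP mice and mice 309 and 316 were not. The means were 2031 ± 215 and 2399.9 ± 277 CPM (SD, n = 4 each), with a log2 fold change of 0.24 (SE 0.15, adjusted p = 0.321 by edgeR), and with total counts the log2 fold change was -0.0015. Gpx1 lies at chr9:108338903-108340343 on the plus strand (ENSMUSG00000063856). Gpx4, the selenoprotein that reduces lipid hydroperoxides in membranes, was the enzyme with the lowest log2 fold change of the 10. It was at 555, 692, 552 and 433 CPM in AAV8-GFP mice and at 561, 412, 561 and 366 CPM in AAV8-AGXT mice, and the groups overlapped. The means were 558 ± 106 and 475 ± 101 CPM (SD, n = 4 each), with a log2 fold change of -0.23 (SE 0.19, adjusted p = 0.469 by edgeR). Gpx4 lies at chr10:80047166-80056439 on the plus strand (ENSMUSG00000075706), and 73.7% of its transcript is shared with copies such as Gpx4-ps2, so its counts are uncertain.

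Prdx1, a cytosolic peroxiredoxin fed by thioredoxin, lay at 783 to 980.4 CPM in AAV8-GFP mice and at 825 to 996 CPM in AAV8-AGXT mice. The means were 868 ± 86.8 and 926 ± 79.9 CPM (SD, n = 4 each), with a log2 fold change of 0.09 (SE 0.13, adjusted p = 0.692 by edgeR) that turned to -0.15 with total counts. Prdx1 lies at chr4:116685544-116700822 on the plus strand (ENSMUSG00000028691), and 2 processed pseudogenes share 26.02% of its transcript. Its upstream sequence is shown because it holds the core of the antioxidant response element, TGACNNNGC, the motif through which Nrf2 acts on many antioxidant genes. Capitals mark this core, here on the opposite strand and beginning 133 bases upstream of the start site, and a GC box.
Prdx1, chr4:116685349-116685543, plus strand: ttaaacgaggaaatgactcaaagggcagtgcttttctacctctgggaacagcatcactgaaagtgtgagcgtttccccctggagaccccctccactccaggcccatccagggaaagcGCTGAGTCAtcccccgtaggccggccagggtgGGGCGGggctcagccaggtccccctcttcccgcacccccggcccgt
The core was found in 10.2% of the 32851 promoters and in 2 of the 9 member genes with an entry, Prdx1 and Sod1. Prdx6 had no entry in the RefSeq promoter table. Neither Prdx1 nor Sod1 passed the test.

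Prdx5, a peroxiredoxin of mitochondria, peroxisomes and cytosol, lay at 288 to 395 CPM in AAV8-GFP mice and at 284 to 401 CPM in AAV8-AGXT mice, so that the AAV8-AGXT range enclosed that of AAV8-GFP. The means were 349.8 ± 44.8 and 347 ± 49.4 CPM (SD, n = 4 each), with a log2 fold change of -0.01 (SE 0.15, adjusted p = 0.968 by edgeR). Prdx5 lies at chr19:6906697-6910106 on the minus strand (ENSMUSG00000024953), and 19.1% of its exon bases are shared with Trmt112 on the other strand, so its counts are uncertain where strand was not used. Thioredoxin, the small protein that returns oxidised peroxiredoxins to their active form, lay at 245 to 329 CPM in AAV8-GFP mice and at 230.2 to 304 CPM in AAV8-AGXT mice. The means were 285 ± 35.1 and 264 ± 30.4 CPM (SD, n = 4 each), with a log2 fold change of -0.11 (SE 0.13, adjusted p = 0.640 by edgeR). Txn1 lies at chr4:57943373-57956411 on the minus strand (ENSMUSG00000028367), and the pseudogene Txn-ps1 shares 29.3% of its transcript.

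Several enzymes were highest in the same mouse of a group. In TMM-scaled CPM, mouse 315 was the highest AAV8-GFP mouse for 7 of the 10 enzymes, and mouse 308 was the highest AAV8-AGXT mouse for 7. Mice 315 and 308 each had the lowest composition factor of their group (1.02 and 0.830), and a low factor raises every CPM of a mouse. These ranks therefore depend on the scaling and may not hold under another. Mouse 309 was the lowest AAV8-AGXT mouse for 6, yet it had the highest catalase. Mouse 308 also had the highest summed hepatocyte markers (78590 CPM, beside 47304 to 57156 CPM in AAV8-GFP mice).

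Per kilobase of the longest protein-coding transcript, Gpx1 was the most abundant of the 10 and Sod2 the least in both groups. In AAV8-GFP mice the levels were 1895 ± 200.2 CPM per kilobase for Gpx1, 1322 ± 131 for Sod1, 779 ± 108 for Cat, 561 ± 107 for Gpx4 and 448 ± 68.3 for Uox (SD, n = 4 each). They were 379 ± 37.9 CPM per kilobase for Prdx1, 277 ± 35.5 for Prdx5, 271 ± 33.4 for Txn1, 184 ± 14.6 for Prdx6 and 28.2 ± 2.41 for Sod2. Among neighbours in this order the ranges over mice overlapped for Cat and Gpx4, Gpx4 and Uox, Uox and Prdx1, and Prdx5 and Txn1. In AAV8-AGXT mice Prdx6, at 278 ± 43.1 CPM per kilobase (SD, n = 4), stood in place 7 where it was in place 9 in AAV8-GFP mice, with a range that overlapped that of Prdx5. Catalase was at 1054 ± 131 CPM per kilobase and stayed in place 3. The order depends on the length used: per kilobase of all exons joined, Sod1 moved to place 7 in AAV8-GFP mice and Cat to place 2.

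**Figure D3:**
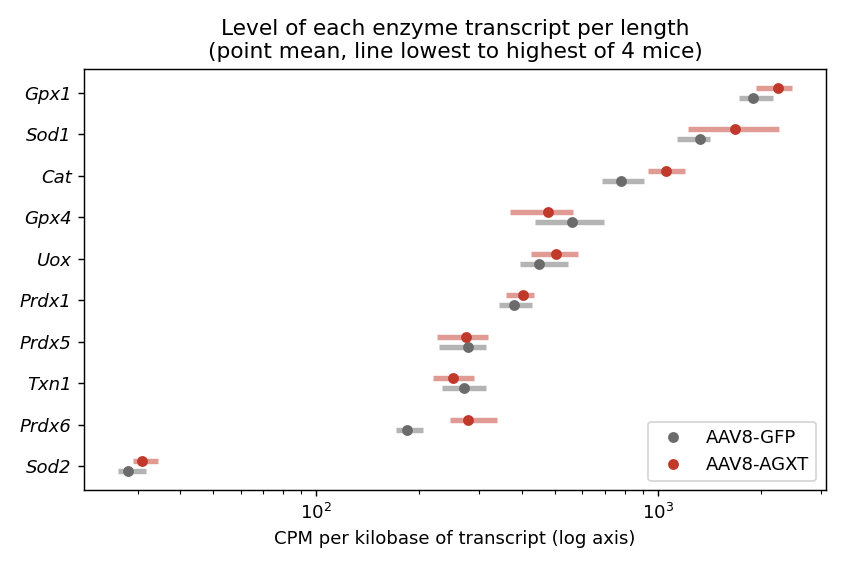
Level of each enzyme transcript per kilobase of its longest coding transcript (horizontal log axis, CPM per kilobase); points are means and lines run from the lowest to the highest of 4 mice in each group. Gpx1 is highest and Sod2 lowest in both groups, and the lines of the groups, in TMM-scaled CPM, are apart for Cat and Prdx6.

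A share of the counts within a mouse does not depend on how the libraries were scaled. The 10 enzymes together took 0.902 to 1.01% of all gene counts in AAV8-GFP mice and 0.927 to 0.985% in AAV8-AGXT mice, which overlap. Prdx6 took 4.83 to 5.13% of the counts of the 10 enzymes in AAV8-GFP mice and 5.97 to 6.77% in AAV8-AGXT mice, with no overlap. The shares of Sod2 (1.87 to 1.88% and 1.66 to 1.85%), Prdx5 (3.51 to 4.57% and 2.94 to 3.48%) and Txn1 (2.98 to 3.37% and 2.38 to 2.63%) did not overlap either and were lower in AAV8-AGXT mice. Shares of a sum are tied to one another, so a higher Prdx6 or Cat lowers the rest. Catalase took 21.1 to 24.9% and 23.3 to 32.4%, and these ranges overlapped.

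**Figure D4:**
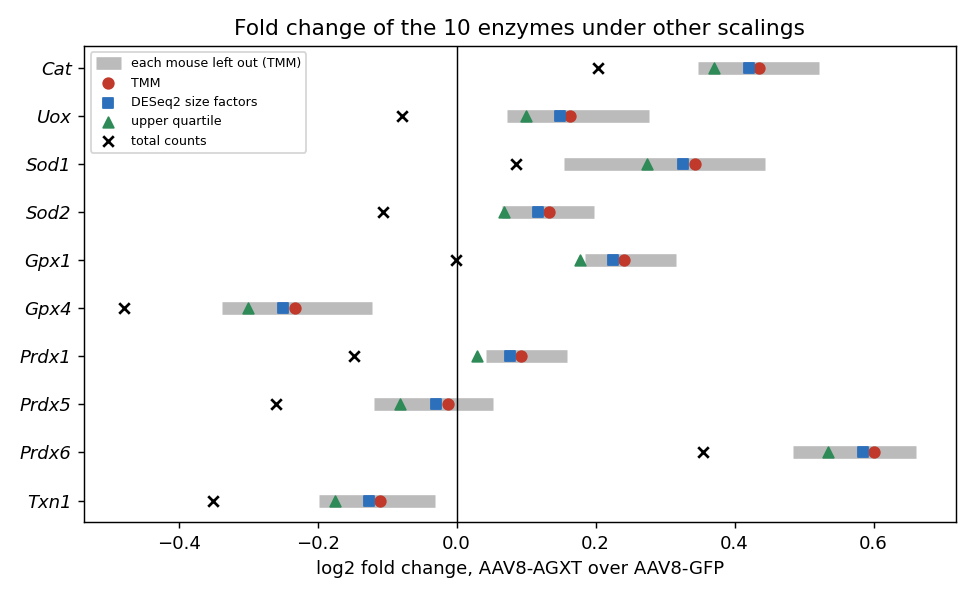
Log2 fold change of the 10 enzymes, AAV8-AGXT over AAV8-GFP (horizontal axis), under each way of scaling the libraries; each point is 1 scaling. Total counts shift all 10 enzymes down, leaving 3 above 0 and 7 below, and shift the median of all tested genes by -0.24.

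The genes whose pattern over the 8 mice came closest to that of catalase, by the root mean square difference of centred log2 CPM, were Fyco1 (0.076), Prkcz2 (0.081), Kynu (0.083), Tmem131 (0.085) and Atxn2 (0.087), where the median tested gene was at 0.37. For urate oxidase they included Nudc (0.057), Zfyve21 (0.066), Slc22a18 (0.071) and Ufc1 (0.071), with a median of 0.321. For Prdx6, looked up after its values were seen, they were Upb1 (0.038), Pbld1 (0.057), Gcdh (0.057), Serpina1b (0.059) and Suclg1 (0.060), with a median of 0.409.

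Among 33 tested genes of 36 from the wider antioxidant systems, 1 rose and 1 fell, and the median log2 fold change was 0.01. Gpx2, Slc7a11 and Ggt1 had too few counts to be tested. The gene that rose was Oplah, the 5-oxoprolinase of the glutathione cycle, at 145, 124, 125 and 132 CPM in AAV8-GFP mice and 286, 218, 222 and 296 CPM in AAV8-AGXT mice. The groups did not overlap (log2 fold change 0.96, SE 0.14, adjusted p = 0.0207 by edgeR), and the call was lost without mouse 311 (adjusted p = 0.108 by edgeR), mouse 314 or mouse 319. Its exons share 11.7% of their bases with Smpd5 and Exosc4 on the other strand, so its counts are uncertain where strand was not used. The gene that fell was Gpx8, a glutathione peroxidase of the endoplasmic reticulum, at 3.24, 3.89, 3.64 and 2.21 CPM in AAV8-GFP mice and 1.66, 1.56, 1.44 and 0.802 CPM in AAV8-AGXT mice. It differed by -1.26 in log2 (SE 0.29, adjusted p = 0.0439 by edgeR) with no overlap, and of the 8 fits that left out a mouse only the one without mouse 315 kept the call (adjusted p = 0.0399 to 0.149 over the 8, by edgeR).

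By list, the 8 tested genes of the other peroxide and superoxide scavengers had a median log2 fold change of -0.28. Besides Gpx8 they include Gpx7, also of the endoplasmic reticulum (-0.85, adjusted p = 0.0795 by edgeR), and Sod3, the secreted dismutase (-0.45, adjusted p = 0.0852 by edgeR), neither of which passed by edgeR. DESeq2 called both lower, Gpx7 at an adjusted p of 0.0164 and Sod3 at 0.0436. By edgeR none of the 18 genes of the thioredoxin and glutaredoxin system passed, and 2 had an unadjusted p under 0.05 (median 0.14). The smallest p was that of Glrx, a glutaredoxin (0.57, adjusted p = 0.0915 by edgeR), which DESeq2 called (adjusted p = 0.0478). Of 7 tested genes of glutathione synthesis and recycling, 1 passed (median -0.15), and Gss, the glutathione synthetase, was at -0.39 (adjusted p = 0.0787 by edgeR). DESeq2 called Gss lower (adjusted p = 0.0212), as did edgeR with total counts (adjusted p = 0.0304). Of the Gss exon bases, 18.6% are shared with other genes on the other strand.

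By edgeR none of the 9 genes listed around NADPH supply, not all of which make NADPH themselves, passed. Of these, 3 had an unadjusted p under 0.05 (median -0.07). DESeq2 called 1 lower, Pgd (adjusted p = 0.0262), and edgeR with total counts called 2 lower, Pgd (adjusted p = 0.0442) and Taldo1 (adjusted p = 0.0304). In Pgd, Tkt and Taldo1, 3 enzymes of the pentose phosphate pathway, every AAV8-AGXT mouse was below every AAV8-GFP mouse, where 7.63% of tested genes showed this. In the same list the groups overlapped for G6pdx (log2 fold change -0.44, adjusted p = 0.336 by edgeR) and H6pd (0.30, adjusted p = 0.319 by edgeR). Pgd was at 55.3, 59.4, 61.7 and 63.5 CPM in AAV8-GFP mice and 35.1, 44.7, 53.0 and 44.4 CPM in AAV8-AGXT mice (log2 fold change -0.44, SE 0.12, adjusted p = 0.0724 by edgeR). Nnt, a mitochondrial source of NADPH of which C57BL/6J mice carry a deletion, had 5 to 29 counts per mouse (0.649 ± 0.378 and 1.13 ± 0.501 CPM, SD, n = 4 each). Of its exon bases, 47.4% are shared with a second annotated gene record, also named Nnt and on the same strand, so its counts are uncertain.

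Of 14 tested oxidases that produce hydrogen peroxide, 1 rose and none fell by edgeR, with 13 of 14 above 0 and a median log2 fold change of 0.24. Of the 8 fits that left out a mouse, the one without mouse 316 kept that call, and DESeq2 called 2 oxidases higher. Hao2 and Dao, with at most 6 counts per mouse, were not tested. Acox2, the peroxisomal oxidase of bile acid intermediates, was at 172, 197, 231 and 242 CPM in AAV8-GFP mice and 292, 311, 259 and 305 CPM in AAV8-AGXT mice (log2 fold change 0.47, SE 0.14, adjusted p = 0.0736 by edgeR). Hao1, the glycolate oxidase of peroxisomes, was at 126 to 176 CPM and 146 to 278 CPM (log2 fold change 0.49, adjusted p = 0.145 by edgeR). Among 8 tested genes of purine breakdown around urate oxidase, 1 rose, with a median of 0.40, while Allc was at 0 counts in all mice and Pnp was not matched. The gene that rose was Urad, which acts 2 steps after urate oxidase on the way to allantoin, at 11.9, 9.86, 7.33 and 7.81 CPM in AAV8-GFP mice and 13.4, 22.95, 14.5 and 25.8 CPM in AAV8-AGXT mice, with no overlap. It differed by 1.05 in log2 (SE 0.24, adjusted p = 0.0449 by edgeR). Of the 8 fits that left out a mouse, those without mouse 308 and without mouse 316 kept the call (0.0476 to 0.149 over the 8), and the call was lost with upper-quartile scaling, total counts and a minimum of 10 counts in every mouse (adjusted p = 0.0589, 0.0746 and 0.0552 by edgeR). DESeq2 called 3 genes of this list higher. Urah, the enzyme between the 2, was at 0.60 (adjusted p = 0.0528 by edgeR) and had no overlap between groups, with 12.4% of its exon bases shared with another gene. All 7 genes of selenoprotein synthesis and supply, which Gpx1 and Gpx4 need, were above 0 (median 0.16). None passed by edgeR and 3 had an unadjusted p under 0.05, with Sepsecs, which makes the selenocysteine carried by its tRNA, at 0.41 (adjusted p = 0.0505 by edgeR). DESeq2 called 2 of them higher, Sepsecs (adjusted p = 0.00752) and Sephs2 (adjusted p = 0.0418), and edgeR with robust estimation called Sepsecs (adjusted p = 0.0492). Of the Sephs2 exon bases, 36.4% are shared with another gene on the other strand, so its counts are uncertain where strand was not used.

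**Figure D5:**
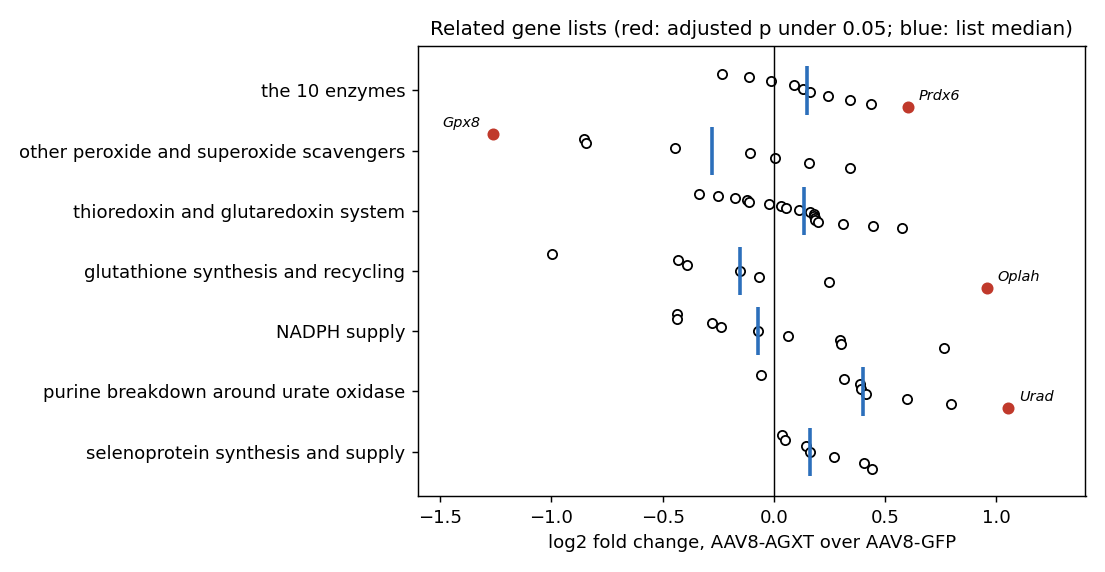
Log2 fold change of each tested gene, AAV8-AGXT over AAV8-GFP (horizontal axis), for the 10 enzymes and the related lists; red points have an adjusted p under 0.05 by edgeR and blue marks are list medians. Prdx6, Oplah, Gpx8 and Urad are red.

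Cell type markers are given beside these results, and their part in them was not tested. By edgeR 1 marker was called in all these lists, Acta2 of the stellate cell and fibroblast list, which was lower, and neither limma-voom nor any fit leaving out a mouse kept that call. Summed hepatocyte markers (8 of 8 tested) were at 47304 to 57156 CPM in AAV8-GFP mice and 56454 to 78590 CPM in AAV8-AGXT mice, ranges that overlap. Their median log2 fold change was 0.40, beside 0.44 for Cat and 0.60 for Prdx6, and 3 had an unadjusted p under 0.05 while DESeq2 called 1 higher. Summed stellate cell and fibroblast markers (8 of 8 tested) were at 528 to 936 CPM and 214 to 588 CPM, and DESeq2 called 2 lower. Their median log2 fold change was -0.83, and 6 had an unadjusted p under 0.05 by edgeR. In 5 of the 8 every AAV8-AGXT mouse was below every AAV8-GFP mouse, where 7.63% of tested genes showed this. Cholangiocyte markers (5 of 5 tested) were at 225 to 673 CPM and 74.1 to 272 CPM. Spp1 made up most of these sums, at 201 to 611 CPM in AAV8-GFP mice and 60.3 to 239 CPM in AAV8-AGXT mice. It shares 18.75% of its exon bases with Gm42793. All 5 cholangiocyte markers had an unadjusted p under 0.05. Of these, 4 were called lower by DESeq2, 2 by edgeR without a filter on low counts, 1 with total counts and 2 without mouse 315. Macrophage markers (8 of 8 tested) were at 368 to 564 CPM and 229 to 909 CPM, with 3 at an unadjusted p under 0.05. DESeq2 called 2 of them lower, and edgeR without a filter on low counts called 1 higher. Endothelial markers (6 of 6 tested) were at 125 to 188 CPM and 134 to 240.2 CPM, with 0 called by DESeq2 and 0 at an unadjusted p under 0.05. Lymphocyte and neutrophil markers (7 of 8 tested) were at 14.8 to 26.1 CPM and 5.38 to 13.7 CPM, with no overlap. In that list 1 had an unadjusted p under 0.05, and DESeq2, edgeR without a filter and edgeR without mouse 316 each called 1 lower, while Ly6g had 0 to 3 counts. Erythroid markers (5 of 7 tested) were at 86.4 to 145 CPM and 114 to 302 CPM, highest in mouse 308. In that list 2 had an unadjusted p under 0.05, and DESeq2 and edgeR without mouse 315 each called 1 higher, while Slc4a1 had 0 to 3 counts per mouse. Prdx2, a peroxiredoxin abundant in red cells and named here after its values were seen, was at 132.3 to 137.2 CPM in AAV8-GFP mice and 113.5 to 132.2 CPM in AAV8-AGXT mice (log2 fold change -0.11, adjusted p = 0.482 by edgeR). Its exons share 11.5% of their bases with Rnaseh2a and Junb on the other strand, and its relation to red cells was not tested.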

How the data were processed

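Liver RNA of 8 mice was sequenced as paired-end, stranded mRNA libraries, 1 per mouse. The authors used Trimmomatic 0.35 for trimming, HISAT2 2.1.0.13 for mapping to GRCm38 and HTSeq for counting over Ensembl genes. The deposited values are raw counts per gene, and the strand option and overlap mode are not given in the sources used here. Of 52636 genes, 52489 were matched to GENCODE M21 for symbols and coordinates and 147 were not.

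Counts were tested in R 4.3.3 with edgeR 4.0.16 (filterByExpr, TMM, quasi-likelihood fit and test, Benjamini-Hochberg adjustment over 15248 genes), with group as the only term. The common biological coefficient of variation was 23.3%. CPM are TMM-scaled, with a prior count of 2 on the log2 scale. DESeq2 1.42.0, limma-voom (limma 3.58.1), other scalings and filters and each mouse left out were alternatives. The fit was tested on simulated data. The named genes were all 10 enzymes, mouse Agxt, Nnt, the called genes of each list or its smallest p-values, and the 5 genes most like Cat and Uox. The enzymes, lists and tests were chosen with earlier results of these data known. Some genes that these rules select, 1 called oxidase among them, are not reported here. Replicates are separate mice, numbered by animal.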

Additional observations from a re-analysis of the deposited data

How the results depend on the processing

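Between 0 and 2 of the 10 enzymes were called higher over all alternatives, and none was called lower. DESeq2 called 2 enzymes higher, 1068 genes higher and 1034 lower, and 2 of the wider antioxidant genes higher and 4 lower. Total counts, which shift the median of all tested genes by -0.24, called 0 enzymes higher, 144 genes higher and 857 lower where the TMM fit called 374 and 290, and 2 of the wider antioxidant genes lower. Upper-quartile scaling called 254 higher and 298 lower. With total counts the log2 fold changes of Uox (-0.078), Sod2 (-0.11), Gpx1 (-0.0015) and Prdx1 (-0.15) turned negative, and no call changed with them. That of Prdx5 ran from -0.118 to 0.0528 over the fits that left out a mouse and was positive without mouse 303 (0.0528), mouse 309 (0.0504) or mouse 316 (0.00630).

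Leaving out a mouse gave 2 to 379 genes higher and 0 to 325 lower, 0 to 1 enzymes higher and 0 to 0 lower, and 0 to 2 of the wider antioxidant genes higher and 0 to 1 lower. Without mouse 311 edgeR called 2 genes higher and 0 lower, although 2663 had an unadjusted p under 0.05. Without mouse 314 it called 11 and 4, and without mouse 319 it called 12 and 2. The cause was not tested. No paired analysis was possible because the groups share no replicate numbers. A p above the threshold does not show that levels were equal.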
